A study of Mus musculus with 12 samples.

Results

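The genes described here are 10 markers of alternative macrophage activation: Il4ra, Stat6, Klf4, Chil3, Retnla, Mrc1, Clec10a, Mgl2, Cd163 and Folr2. They were taken by name, by matching each symbol to its Ensembl identifier, and all 10 were among the 54532 genes of the count table. Of these, 9 passed the filter on low counts and were tested with 15338 genes in all, and the remaining one, Retnla, had no counts in any library. The libraries came from mouse bone marrow-derived macrophages (BMDMs), cells grown in culture from marrow. The question of the series was the effect of GPNMB, a membrane glycoprotein made by lipid-laden macrophages, on foam cell formation.

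There were 4 groups of 3 libraries. Cells of control mice (WT) and cells carrying the GpnmbR150X allele (R150X) were each left untreated or given OxLDL, oxidised low-density lipoprotein. Both genotypes were labelled with one strain, DBA/2 crossed with C57BL/6 and backcrossed to C57BL/6. The labels gave no age, sex, OxLDL dose or duration, and did not say whether the libraries of a group came from separate mice or cultures, so the p-values measure only the spread between libraries, which may be technical. No interleukin was named among the treatments.

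Alternative activation is the state that macrophages enter when interleukin-4 or interleukin-13 binds a receptor containing the Il4ra chain. Janus kinases on the receptor phosphorylate STAT6, which enters the nucleus and switches on genes such as Chil3, Retnla, Arg1 and Mrc1, and KLF4 acts with STAT6 in this programme. Cd163 and Folr2 are better known from macrophages resident in tissues, and mouse Clec10a and Mgl2, a pair of lectin genes, are found on both macrophages and dendritic cells.

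Total counts ran from 14838969 to 18222868 per library, and levels are in CPM, the count of a gene relative to the library's total after its adjustment by the trimmed mean of M-values (TMM). Gpnmb averaged 5330.2 CPM in WT and 385 CPM in R150X without OxLDL, and 12508 and 706 CPM with it. Xist stood at 228 to 349 CPM in the 6 R150X libraries and at most 2.75 CPM in the 6 WT libraries. The allele and a difference in the sex of the mice thus cannot be told apart in any comparison of genotypes. Within WT, Xist averaged 1.69 CPM without OxLDL and 0.0459 CPM with it, and the source of this difference was not tested. The macrophage genes Lyz2, Csf1r and Adgre1 were expressed in all groups, and the summed level of 8 macrophage identity genes ran from 19453 to 24765 CPM. Lyz2 alone averaged 13989.6 to 19831 CPM, so the sum hides changes of the others. Adgre1 went from 2727 to 833 CPM with OxLDL in WT and from 2763 to 769 in R150X. By the edgeR test below, 4 of the 8 rose and 1 fell in untreated R150X. Under OxLDL 0 rose and 5 fell in R150X (1 rose without untreated R150X replicate 1). OxLDL raised 3 and lowered 3 in WT, and raised 3 and lowered 5 in R150X. The chi-square over its degrees of freedom was 2.31 to 4.76 for most replicate pairs, but 9.23 and 10.1 for replicate 1 of untreated R150X against replicates 2 and 3.

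The markers did not move as a block. In untreated cells R150X held less Chil3, Il4ra, Klf4 and Mrc1 than WT and more Clec10a, Mgl2 and Stat6. OxLDL lowered Chil3, Il4ra and Folr2 and raised Mrc1, Clec10a and Stat6 in both genotypes. Chil3 moved most: its mean went from 57.8 ± 1.07 CPM (SD, n = 3) in untreated WT to 3.35 ± 0.160 CPM in OxLDL-treated R150X cells. Mrc1 and Klf4 responded to OxLDL differently in the 2 genotypes.

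A gene counts as changed at an adjusted p under 0.05 by the quasi-likelihood test of edgeR, with p-values adjusted by Benjamini-Hochberg over all 15338 genes, and "rose" and "fell" refer to that test. Between untreated genotypes 3 of 9 markers rose in R150X and 4 fell, where 18.1% of all genes rose and 14.8% fell. Under OxLDL 2 rose in R150X and 2 fell, against 6.10% and 6.92% of all genes. No marker rose there without replicate 1 or replicate 2 of OxLDL-treated R150X, and 1 rose without WT replicate 1 or 2 or any OxLDL-treated WT replicate. OxLDL raised 4 and lowered 4 markers in WT, where it raised 22.7% and lowered 23.1% of all genes. In R150X it raised 4 and lowered 3, against 18.4% and 20.6%. The interaction is the response in R150X minus that in WT. It was called above 0 for 2 of 9 markers, against 3.13% of all genes. It was called below 0 for none (1 without OxLDL-treated R150X replicate 2), against 5.19% of all genes. Over the 9 markers, called or not, the median interaction was -0.09, and over all genes -0.02. The same shares of all genes apply to the counts of every gene list given here, and no list was tested against them.

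Median log2 fold changes of the 9 markers were near 0 because rises and falls offset each other: -0.14 between untreated genotypes, -0.01 under OxLDL, 0.03 for OxLDL in WT and 0.02 in R150X, with all-gene medians of 0.01, 0.002, 0.01 and 0.0039. Median absolute log2 fold changes of the markers were 0.56, 0.21, 0.76 and 0.68, and those of all genes 0.21, 0.13, 0.27 and 0.24. Comparisons that share a control group are not independent of each other. Scaled by library size alone, the median gene moved from 0.01 to -0.10 for OxLDL in WT, and the share of called genes that were higher went from 55.0% to 36.1% between untreated genotypes, from 49.6% to 31.6% for OxLDL in WT and from 37.6% to 66.5% for the interaction. No call of the markers changed direction under that scaling.

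**Figure D1:**
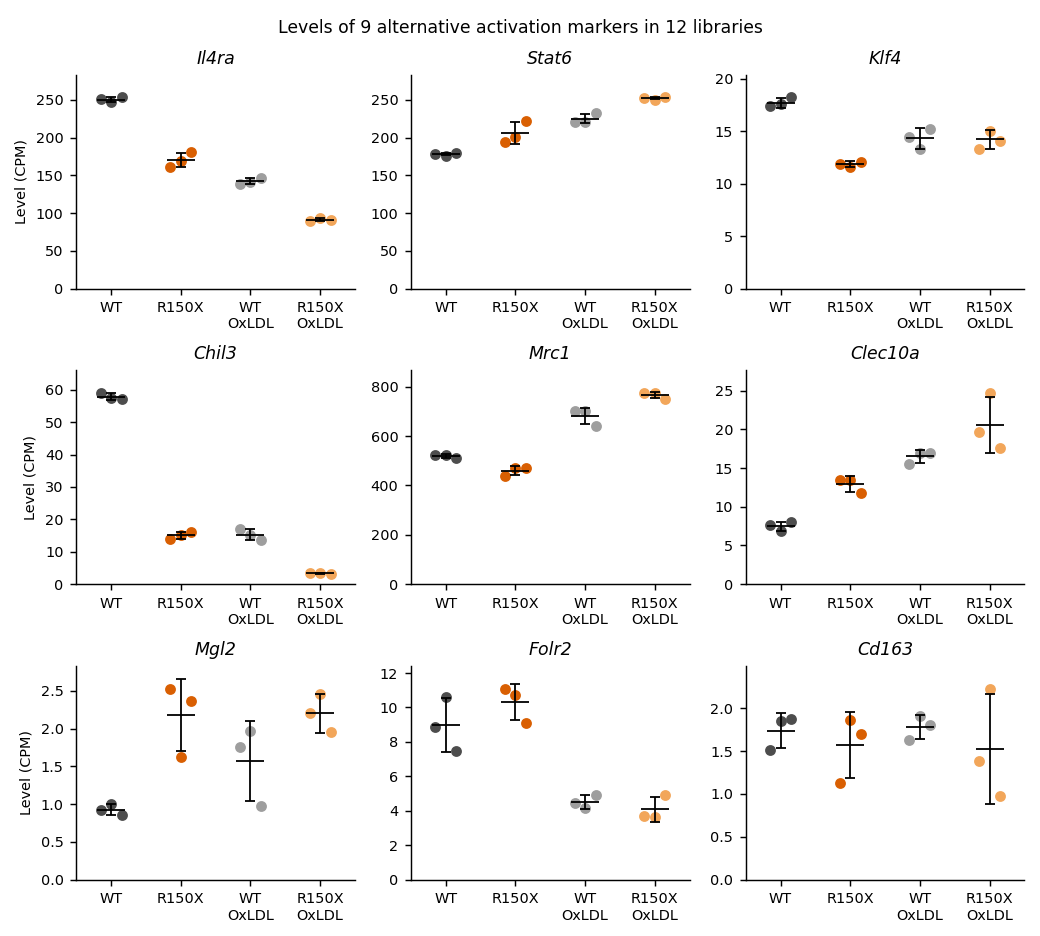
Level of 9 markers in each of the 12 libraries (points, CPM, axes from 0), with the mean and SD of each group of 3 libraries (horizontal and vertical bars). Chil3 and Il4ra were highest in untreated WT and lowest in OxLDL-treated R150X, whereas Mrc1 and Clec10a were highest in OxLDL-treated R150X.

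Il4ra encodes the chain that interleukin-4 and interleukin-13 receptors share. In GRCm38 the gene (ENSMUSG00000030748) spans 125552120 to 125579474 of chromosome 7, plus strand. Its level was 251, 247 and 253 CPM in WT replicates 1 to 3 and 161, 169 and 180.2 CPM in R150X. With OxLDL it was 139, 141 and 147 CPM in WT and 89.2, 93.9 and 90.7 CPM in R150X. Every group was separate from the next, in the order untreated WT, untreated R150X, OxLDL-treated WT, OxLDL-treated R150X.

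Il4ra fell in R150X by 0.56 on the log2 scale without OxLDL (SE 0.0489, adjusted p = 2.72e-08) and by 0.64 with it (SE 0.0511, adjusted p = 1.05e-08). OxLDL lowered it by a log2 fold change of -0.81 in WT (SE 0.0495, adjusted p = 1.17e-11) and -0.90 in R150X (SE 0.0507, adjusted p = 3.67e-12). The 2 responses differed by -0.09 (SE 0.0706, adjusted p = 0.527). Part of its exons (571 bases) overlaps Gm44876, annotated on the opposite strand, which had at most 1 count in any library.

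Stat6, the transcription factor that the receptor activates, moved the other way. It lies on chromosome 10 from 127642986 to 127660957 (plus strand, ENSMUSG00000002147) and was at 178, 176 and 179 CPM in WT and 194, 201 and 222 CPM in R150X. With OxLDL the WT libraries held 221, 221 and 232 CPM and the R150X libraries 252, 250 and 253 CPM. Untreated R150X overlapped OxLDL-treated WT, and the other neighbouring groups were separate.

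Stat6 rose in untreated R150X by 0.21 (SE 0.0504, adjusted p = 0.0027). OxLDL raised it by 0.34 in WT (SE 0.0505, adjusted p = 1.09e-05) and by 0.29 in R150X (SE 0.0502, adjusted p = 8.58e-05). Its rise in R150X under OxLDL was 0.16 (SE 0.0502, adjusted p = 0.0334). The interaction was -0.05 (SE 0.0711, adjusted p = 0.752). The call under OxLDL was lost in 7 of 18 alternatives, without WT replicate 1 or 2, OxLDL-treated WT replicate 1 or 2, or any OxLDL-treated R150X replicate, with an adjusted p from 0.00655 to 0.13 over the 18.

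Klf4, a zinc-finger factor, lies on chromosome 4 from 55527143 to 55532466 (minus strand, ENSMUSG00000003032). Untreated WT libraries held 17.4, 17.6 and 18.2 CPM and untreated R150X libraries 11.9, 11.6 and 12.1 CPM. With OxLDL the values were 14.4, 13.3 and 15.2 CPM in WT and 13.3, 15 and 14.1 CPM in R150X. The genotypes were apart without OxLDL and overlapped with it.

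Klf4 fell in untreated R150X by 0.58 on the log2 scale (SE 0.0898, adjusted p = 4.54e-05), while the difference under OxLDL was -0.01 (SE 0.092, adjusted p = 0.953). OxLDL lowered Klf4 in WT by 0.31 (SE 0.0891, adjusted p = 0.00707) and raised it in R150X by 0.25 (SE 0.0927, adjusted p = 0.0346). The interaction was 0.57 (SE 0.129, adjusted p = 0.00747), a call that was kept in all 17 alternatives (adjusted p from 0.0023 to 0.0289). The rise in R150X alone was lost in 9 of 18 alternatives (adjusted p from 0.0287 to 0.14). Among these were DESeq2 and leaving out any untreated R150X replicate or OxLDL-treated R150X replicate 2 or 3.

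**Figure D2:**
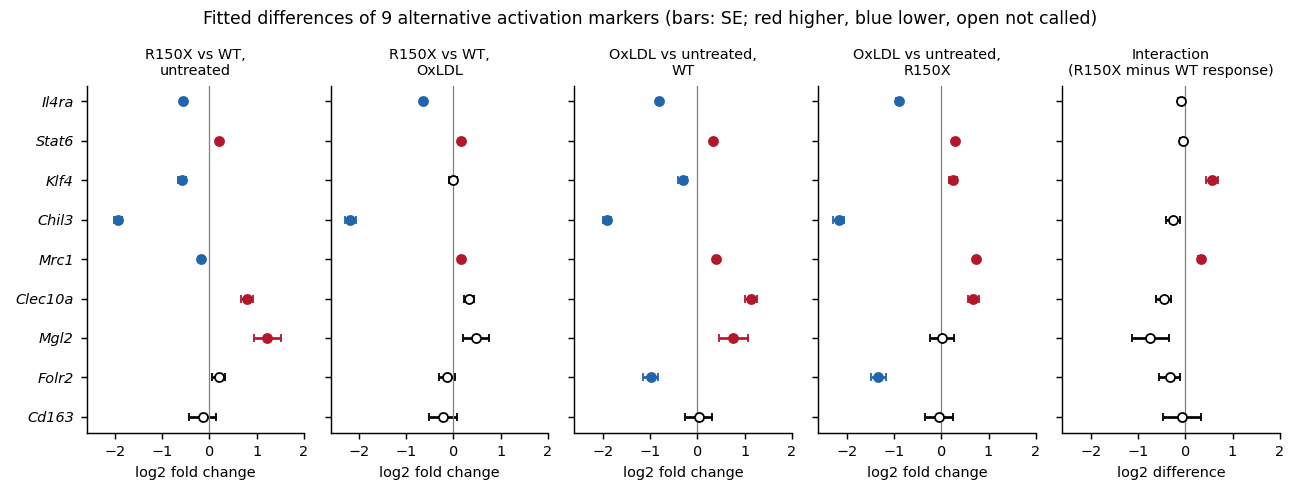
Fitted log2 differences of the 9 markers in 5 comparisons, 1 panel each, with bars for the SE. Red points rose, blue points fell and open points were not called. Chil3 lies between -2.18 and -1.92 in the first 4 panels, and in the last panel only Klf4 at 0.57 and Mrc1 at 0.34 were called.

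Chil3 encodes a secreted chitinase-like protein, also called Ym1, that binds sugars but does not digest chitin. It lies on chromosome 3 from 106147554 to 106167564 (minus strand, ENSMUSG00000040809). Retnla encodes the secreted resistin-like protein also called FIZZ1 or RELM-alpha and lies on chromosome 16 from 48842551 to 48844461 (plus strand, ENSMUSG00000061100). Both are standard readouts of interleukin-4 in mouse macrophages, and their promoters are printed because 1 was expressed here and the other was not.

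The sequences are the 250 bases before the start of each gene in RefSeq (GRCm38.p6), 5′ to 3′ on the gene's strand, at chr3:106167565-106167814 for Chil3 and chr16:48842359-48842608 for Retnla. Capitals mark a palindrome of the STAT type, the letters TTC and GAA separated by any 3 bases, or the same pair separated by any 4 bases, the spacing that STAT6 prefers.
Chil3: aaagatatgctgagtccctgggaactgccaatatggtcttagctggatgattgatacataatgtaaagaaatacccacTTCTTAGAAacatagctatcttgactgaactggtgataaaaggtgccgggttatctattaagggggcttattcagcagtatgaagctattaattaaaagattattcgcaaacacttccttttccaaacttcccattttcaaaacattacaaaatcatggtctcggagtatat
Retnla: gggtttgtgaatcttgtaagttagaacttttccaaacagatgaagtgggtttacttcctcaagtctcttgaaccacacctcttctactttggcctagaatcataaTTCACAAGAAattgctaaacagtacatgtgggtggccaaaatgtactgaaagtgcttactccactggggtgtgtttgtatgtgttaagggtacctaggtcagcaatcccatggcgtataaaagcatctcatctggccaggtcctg

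Windows of 300 bases (250 before to 50 after the start) were searched on both strands, each motif being its own reverse complement. The Retnla window held 1 match with the 4-base spacer, from base -145, and the Chil3 window 1 match with the 3-base spacer, from base -172, so that no 2 matches overlapped. RefSeq's table held windows for 9 of the 10 markers, all but Clec10a, and no other marker's window held either motif. Among 32851 windows of all genes, 6.95% held the form with 4 bases and 8.30% the form with 3. A match describes the letters only.

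Retnla had 0 counts in all 12 libraries, where 3 counts would correspond to 0.158 to 0.209 CPM. Its level was thus under that limit in every group.

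Chil3 was at 59.0, 57.4 and 57.0 CPM in untreated WT and 13.9, 15.3 and 16.1 CPM in untreated R150X. With OxLDL it was at 17, 15.1 and 13.6 CPM in WT and 3.45, 3.43 and 3.17 CPM in R150X. Untreated R150X and OxLDL-treated WT overlapped, and both were apart from untreated WT above and OxLDL-treated R150X below.

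Chil3 was 3.82-fold lower in untreated R150X than in untreated WT (log2 fold change -1.93, SE 0.0813, adjusted p = 3.05e-13). Under OxLDL the R150X level was 4.54-fold lower (-2.18 in log2, SE 0.116, adjusted p = 1.79e-11). OxLDL lowered it by log2 fold changes of -1.92 in WT (SE 0.0825, adjusted p = 3.11e-14) and -2.17 in R150X (SE 0.115, adjusted p = 1.23e-12). The interaction was -0.25 (SE 0.147, adjusted p = 0.338).

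Chil3 belongs to a family of close copies. Of the 50-base words in its transcripts, 26.9% also occur in transcripts of other genes, 16.9% in those of Chil4, and the counting could have split or dropped such reads. Chil4 and Gm6522, the genes that share them, had 0 counts in all 12 libraries. Chil1, a related chitinase-like gene, averaged 13.7 ± 0.764 CPM in untreated WT and 5.63 ± 0.854 in untreated R150X (SD, n = 3), a fall with a log2 fold change of -1.29. OxLDL lowered it by log2 fold changes of -2.88 in WT and -3.41 in R150X.

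Chil3 is also made by immature neutrophils and monocytes, and part of their markers fell where it fell. Of 11 neutrophil markers tested, 10 fell and 0 rose in untreated R150X, 9 fell and 0 rose in R150X under OxLDL, 6 fell and 2 (Mmp8 and Mpo) rose with OxLDL in WT (1 rose without OxLDL-treated WT replicate 1), and 7 fell and 0 rose with OxLDL in R150X. The granule gene Ngp averaged 122 ± 4.30 CPM in WT and 49.0 ± 1.81 in R150X without OxLDL, and 35.8 ± 1.17 and 8.65 ± 0.497 CPM with it (SD, n = 3). With OxLDL in WT, where Chil3 fell, Mpo rose by 0.58 and Mmp8 by 0.93 on the log2 scale. Elane (0.32), Prtn3 (0.08) and Cxcr2 (-0.79) were not called there. Macrophages can themselves express some neutrophil markers, such as S100a8 and Lcn2.

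The summed level of the 12 neutrophil markers ran from 562 to 594 CPM in WT, 286 to 312 in R150X, 139 to 158 in OxLDL-treated WT and 43.7 to 46.1 in OxLDL-treated R150X, and no marker was at 0 in a whole group. Chil3 is not one of the 12. As a ratio to that sum, chosen after the values were seen, Chil3 was at 9.94%, 10.2% and 9.97% in WT, and 10.7%, 9.65% and 9.74% in OxLDL-treated WT. In R150X it was 4.46%, 5.35% and 5.60% without OxLDL and 7.89%, 7.44% and 6.92% with it. The ratio overlapped between the 2 WT groups and was lower in every R150X library than in every WT library. The summed markers did not fall alike. In WT, Lcn2 averaged 139 CPM without OxLDL and 10.8 with it, and Ngp 122 and 35.8. The ratio thus depends on which markers are summed.

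Of 9 monocyte markers, 6 fell in untreated R150X, 4 in R150X under OxLDL, and 6 with OxLDL in each genotype, and Ly6c2 averaged 47.8 CPM in WT and 20.9 in R150X without OxLDL, and 3.87 and 1.06 CPM with it. Spn rose in untreated R150X and Nr4a1 with OxLDL in R150X. Mmp8, Mpo, Elane, Prtn3, Cxcr2 and Nr4a1 are named after their values were seen. The summed level of the 9 monocyte markers was 435 to 451 CPM in WT, 236 to 277 in R150X, 188 to 201 in OxLDL-treated WT and 121 to 125 in OxLDL-treated R150X. In bulk libraries, fewer cells of a type and less RNA per cell cannot be told apart, and the part of neutrophils or monocytes in the Chil3 result was not tested.

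**Figure D3:**
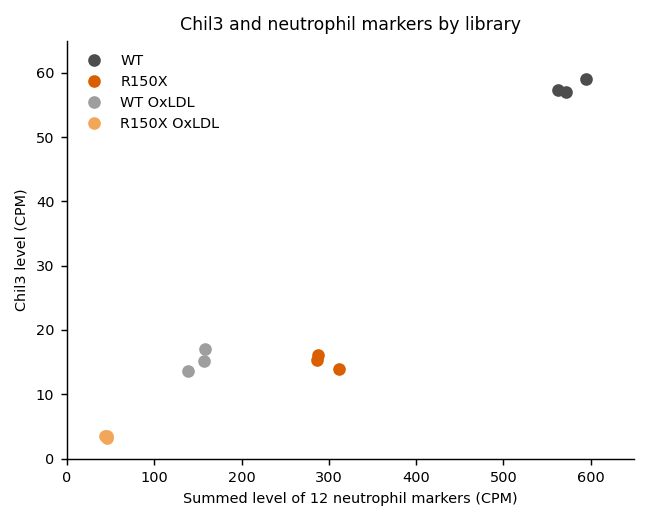
Chil3 level against the summed level of 12 neutrophil markers in each library (points, CPM, both axes linear from 0, coloured by group). Untreated R150X lies at 286 to 312 CPM of neutrophil markers and OxLDL-treated WT at 139 to 158 CPM, with overlapping Chil3 levels.

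Mrc1 encodes the mannose receptor CD206, which takes up glycoproteins bearing mannose. It lies on chromosome 2 from 14229392 to 14332057 (plus strand, ENSMUSG00000026712) and shared none of its 50-base words with another gene. Untreated WT libraries held 525, 523 and 512 CPM and untreated R150X libraries 439, 471 and 471 CPM. With OxLDL the level was 701, 702 and 642 CPM in WT and 775, 773 and 751 CPM in R150X. All 4 groups were separate, and R150X was the lowest of them without OxLDL and the highest with it.

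Mrc1 fell in untreated R150X by 0.18 on the log2 scale (SE 0.0453, adjusted p = 0.00508) and rose in R150X under OxLDL by 0.17 (SE 0.0451, adjusted p = 0.015). OxLDL raised it by 0.39 in WT (SE 0.0453, adjusted p = 3.26e-07) and by 0.74 in R150X (SE 0.0454, adjusted p = 1.76e-11). The response was larger in R150X, with an interaction of 0.34 (SE 0.0639, adjusted p = 0.00137), with an adjusted p of at most 0.00705 over 17 alternatives. The genotype difference under OxLDL lost its call without OxLDL-treated WT replicate 3 (0.13, adjusted p = 0.0808) or OxLDL-treated R150X replicate 1 (adjusted p = 0.0551) or 2 (adjusted p = 0.0654), over a range of 0.00162 to 0.0808. Its relative Mrc2 (Endo180), a collagen receptor, fell in R150X, with log2 fold changes of -0.55 without OxLDL and -0.34 with it.

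Clec10a and Mgl2 are neighbouring genes on the plus strand of chromosome 11, from 70156197 to 70170834 (ENSMUSG00000000318) and from 70130329 to 70137550 (ENSMUSG00000040950). They encode lectins that bind galactose and N-acetylgalactosamine, also called MGL1 and MGL2. Of the 50-base words of Mgl2, 12.2% occur in Clec10a, and 8.49% of those of Clec10a occur in Mgl2, so part of their reads cannot be assigned to one of them.

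Clec10a was at 7.60, 6.86 and 8.0 CPM in WT and 13.5, 13.5 and 11.8 CPM in R150X. With OxLDL it was at 15.5, 17 and 16.9 CPM in WT and 19.6, 24.7 and 17.6 CPM in R150X. The 4 groups did not overlap and their means increased in that order, with the widest spread in OxLDL-treated R150X.

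Clec10a rose in untreated R150X by 0.79 (SE 0.126, adjusted p = 6.31e-05). OxLDL raised it by 1.14 in WT (SE 0.124, adjusted p = 1.4e-07) and by 0.68 in R150X (SE 0.114, adjusted p = 6.02e-05). The genotype difference under OxLDL was 0.33 (SE 0.113, adjusted p = 0.0595) and passed in 4 of 18 alternatives, among them without untreated R150X replicate 1 (adjusted p = 0.0453) or OxLDL-treated R150X replicate 3 (adjusted p = 0.018), over a range of 0.018 to 0.377. The interaction was -0.46 (SE 0.169, adjusted p = 0.106), and it passed at -0.61 without OxLDL-treated R150X replicate 2 (adjusted p = 0.021, range 0.021 to 0.241).

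Mgl2 was lowly expressed, with 14 to 43 counts per library. Its level was 0.916, 1.00 and 0.859 CPM in WT and 2.53, 1.63 and 2.36 CPM in R150X. With OxLDL it was 1.75, 1.97 and 0.973 CPM in WT and 2.20, 2.46 and 1.95 CPM in R150X. Untreated WT was below both R150X groups, and the other groups overlapped.

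Mgl2 rose in untreated R150X by 1.22 (SE 0.286, adjusted p = 0.0025), the direction of Clec10a. The difference under OxLDL was 0.48 (SE 0.272, adjusted p = 0.287). With OxLDL the change was 0.76 in WT (SE 0.304, adjusted p = 0.047) and 0.02 in R150X (SE 0.256, adjusted p = 0.953). The interaction was -0.74 (SE 0.397, adjusted p = 0.293). The WT call was lost in 14 of 18 alternatives, DESeq2 among them and without any one of 9 of the 12 libraries, with an adjusted p from 0.0114 to 0.203.

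Dendritic cell markers, given because dendritic cells express both lectins, were low: 9 genes summed to 13.3 to 14.7 CPM in WT, 16.3 to 17.8 in R150X, 11.7 to 12.3 in OxLDL-treated WT and 12.9 to 13.6 in OxLDL-treated R150X. Of 5 tested, Batf3 rose in untreated R150X and none was called between genotypes under OxLDL. OxLDL lowered 1 in WT (2 without OxLDL-treated WT replicate 1 or with no filter). It lowered 3 in R150X, or 1 in a fit of the 2 groups alone or without untreated R150X replicate 1 or OxLDL-treated R150X replicate 1 or 2. Flt3, a defining marker of dendritic cells, had at most 0.225 CPM in any library, and the part of such cells in the lectin results was not tested.

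Folr2 encodes folate receptor beta and lies on chromosome 7 from 101839988 to 101857194 (minus strand, ENSMUSG00000032725). Its level was 8.84, 10.6 and 7.46 CPM in WT and 11.1, 10.7 and 9.12 CPM in R150X. With OxLDL it was 4.45, 4.15 and 4.94 CPM in WT and 3.70, 3.66 and 4.93 CPM in R150X. The genotypes overlapped in both conditions, and every OxLDL-treated library was below every untreated one.

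OxLDL lowered Folr2 by log2 fold changes of -0.99 in WT (SE 0.156, adjusted p = 2.02e-05) and -1.33 in R150X (SE 0.155, adjusted p = 4.67e-07). The genotype differences were 0.20 without OxLDL (SE 0.137, adjusted p = 0.289) and -0.14 with it (SE 0.175, adjusted p = 0.687), and the interaction was -0.33 (SE 0.223, adjusted p = 0.408). Of the 50-base words of Folr2, 52.6% occur in Gm10602, annotated over it on the opposite strand, and without the strand setting the reads of the pair cannot be told apart. Gm10602 itself averaged 1.59 to 2.19 CPM in the 4 groups.

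Cd163, the scavenger receptor for complexes of haemoglobin with haptoglobin, lies on chromosome 6 from 124304656 to 124330527 (plus strand, ENSMUSG00000008845). It averaged 1.74 ± 0.205 CPM in WT, 1.57 ± 0.383 in R150X, 1.78 ± 0.140 in OxLDL-treated WT and 1.53 ± 0.642 in OxLDL-treated R150X (SD, n = 3), with 16 to 39 counts per library. All neighbouring groups overlapped. Its 4 log2 fold changes ran from -0.21 to 0.03 with SE of 0.285 to 0.296 and adjusted p from 0.725 to 0.949, so that no difference was detectable at this depth.

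Levels of different genes are compared per kilobase of exon. In untreated WT, Mrc1 was the most abundant marker at 81.6 CPM per kb, followed by Il4ra at 41.7, Stat6 at 40.4 and Chil3 at 35.4. Klf4 stood at 5.82, Folr2 at 5.80, Clec10a at 2.58, Mgl2 at 0.442 and Cd163 at 0.319 CPM per kb. In OxLDL-treated R150X cells the order changed: Mrc1 was at 120 and Stat6 at 57.2 CPM per kb, Il4ra had moved to 15.2 and Chil3 to 2.05, below Clec10a at 7.12.

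The other genes of the interleukin-4 and interleukin-13 pathway, from a list of 19 of which 17 were tested, went both ways. In untreated R150X 4 rose and 5 fell (3 fell without WT replicate 3), against 18.1% and 14.8% of all genes. Under OxLDL 1 (Pparg, 0.26) rose in R150X (0 without OxLDL-treated WT replicate 2 or OxLDL-treated R150X replicate 2 or 3) and 3 fell. Between genotypes under OxLDL the shares of all genes were 6.10% and 6.92%. OxLDL raised 2 and lowered 7 in WT, against 22.7% and 23.1% of all genes. It also raised 2 and lowered 7 in R150X, against 18.4% and 20.6%. The 2 that rose in R150X became 1 without untreated R150X replicate 2 or 3 or OxLDL-treated R150X replicate 2. With replicate as a block, 4 rose. The interaction was called for Ptpn6 at -0.30 and Pparg at -0.38, neither of which was called when scaled by library size alone.

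The ligands were scarce. Il4 averaged 3.10 CPM in WT and 2.31 in R150X without OxLDL, and 3.63 and 3.56 CPM with it, a rise in R150X. Il13 had 3 counts in all 12 libraries together, 1 in untreated WT and 2 in OxLDL-treated WT. Il13ra1, which pairs with Il4ra in the receptor for both cytokines, fell in R150X like Il4ra, by 0.24 on the log2 scale without OxLDL (adjusted p = 0.0123) and by 0.44 with it (adjusted p = 0.000234). Il2rg, the common gamma chain of the other interleukin-4 receptor, rose in untreated R150X by 0.29 (adjusted p = 0.000671) and was at 0.06 under OxLDL (adjusted p = 0.62). OxLDL lowered Il2rg by log2 fold changes of -0.59 in WT and -0.83 in R150X.

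Of the Janus kinases, Jak1 was called in none of the 5 comparisons, with log2 values from -0.03 to 0.11. Jak2 fell with OxLDL, by 0.87 in WT and by 0.93 in R150X. Jak3 fell in untreated R150X by 0.29 and Tyk2 rose there by 0.18. The feedback inhibitor Socs3 fell in R150X by 0.78 without OxLDL and by 0.79 with it, and OxLDL lowered it by log2 fold changes of -1.97 in WT and -1.98 in R150X. Socs1, another inhibitor of Janus kinases, went from 14.6 ± 1.29 to 2.44 ± 0.599 CPM with OxLDL in WT and from 14.1 ± 0.359 to 2.80 ± 0.537 CPM in R150X (SD, n = 3).

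Pparg, a lipid-sensing nuclear receptor that takes part in alternative activation, rose in untreated R150X by 0.64 (adjusted p = 4.07e-07). It rose with OxLDL in WT by 0.37 and was at -0.01 in R150X (adjusted p = 0.925). Inpp5d (SHIP1), a lipid phosphatase, fell in R150X in both conditions, at -0.25 and -0.30. Irf4, a factor induced by interleukin-4 in macrophages, averaged 0.542 to 0.784 CPM in the 4 groups and was called in no comparison.

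**Figure D4:**
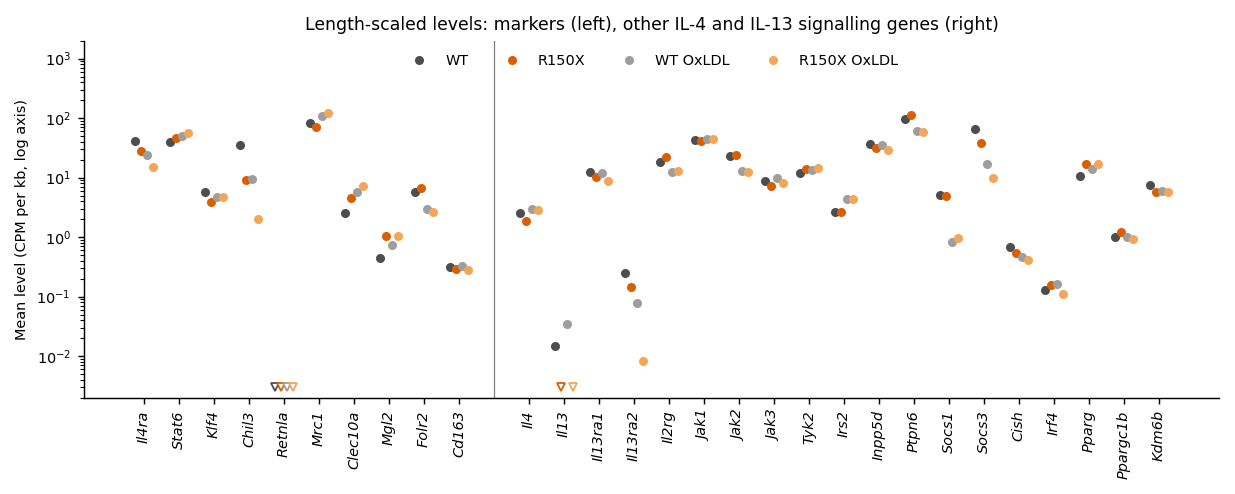
Mean level per kilobase of exon (log axis) in each group of 3 libraries, for the 10 markers on the left and 19 other genes of interleukin-4 and interleukin-13 signalling on the right. Open triangles at the lower edge stand for groups with 0 counts, which are all 4 groups of Retnla and the 2 R150X groups of Il13.

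A list of 23 further genes associated with alternative activation had 15 tested members. In untreated R150X 5 rose and 5 fell, and under OxLDL 4 rose and 3 fell in R150X (5 fell without untreated R150X replicate 1). OxLDL raised 4 and lowered 6 in WT, and raised 4 and lowered 5 in R150X. The kinase gene Matk rose in untreated R150X by 0.99, and the V-ATPase subunit gene Atp6v0d2 by 0.50, while fibronectin (Fn1) fell by 0.97. Il1rn, the interleukin-1 receptor antagonist, rose in R150X under OxLDL by 0.76, where transglutaminase Tgm2 fell by 0.54. The arginine transporter Slc7a2 fell with OxLDL, at -1.68 in WT and -1.73 in R150X, and the inhibitory receptor Cd200r1 rose, at 1.02 and 0.88.

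Some interleukin-4 targets in that list were at or near 0, and they are named here for that, after their values were seen. Others were well expressed, such as the transcription factor gene Egr2, which averaged 73.2 to 142 CPM in the 4 groups, and Tgm2, which averaged 76.4 to 111 CPM. Arg1, the arginase that competes for arginine with nitric oxide synthase, had 15 to 21 counts per library in untreated WT and 0 to 6 in the other 9 libraries. It fell in untreated R150X (log2 fold change -1.68, adjusted p = 0.00876). Chil4 and Rnase2a had 0 counts throughout. The chemokine genes Ccl17 and Ccl22 averaged at most 0.218 and 0.325 CPM in any group, and Ccl24 at most 0.118 CPM.

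Genes of tissue-resident macrophages, 17 of 18 tested, are the company in which Folr2 and Cd163 are usually found. OxLDL raised 9 and lowered 7 in WT and raised 7 and lowered 8 in R150X. The growth factor gene Igf1 rose with OxLDL by 1.19 in WT and by 0.79 in R150X, and the bridging ligand Gas6 by 0.86 and 0.85. Between untreated genotypes 4 rose and 3 fell in R150X (5 fell with library size alone). Under OxLDL 8 fell and 2 rose, with rises of 0 to 2 over the libraries left out one at a time. Complement C1qa fell by 0.76 and C1qb by 0.50 in R150X under OxLDL.

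Other relatives of the markers were mostly at low levels, and 13 of 25 were tested. In untreated R150X 2 rose and 5 fell, with 1 rise without WT replicate 1 or 3 or untreated R150X replicate 1, or with library size alone. Under OxLDL 2 rose in R150X (1 without any one of 7 libraries or with DESeq2) and 5 fell. OxLDL raised 4 (2 in WT with library size alone) and lowered 5 in each genotype. Klf6 rose in untreated R150X by 0.55, where Klf4 fell. Cd5l, which shares the scavenger domain of Cd163, rose with OxLDL at 1.95 in WT and 1.54 in R150X and fell in R150X under OxLDL by 0.64.

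In untreated R150X, where 14.8% of all genes fell and 18.1% rose, Chil3, Il4ra, Klf4 and Mrc1 fell. So did 8 of 10 markers of stroma, and 1 rose. Their summed level was 14718 to 14911 CPM in WT, 9672 to 9718 in R150X, 6520.1 to 7145 in OxLDL-treated WT and 5684 to 5983 in OxLDL-treated R150X, with no marker at 0. Under OxLDL 4 of 10 fell in R150X and none rose. OxLDL lowered 7 of 10 and raised none in each genotype. With it Chil3 and Il4ra fell and Mrc1 rose in both genotypes, but Klf4 fell in WT and rose in R150X. Stromal cells can express both Il4ra and Klf4, and their part in these results was not tested. Markers of eosinophils, mast cells and basophils summed to 15.7 to 35.4 CPM per library, with Epx and Mcpt4 at 0 in untreated R150X, Mcpt4 in OxLDL-treated WT and Fcer1a in OxLDL-treated R150X. Of 3 tested, none was called between untreated genotypes and 2 fell in R150X under OxLDL.

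By correlation of log2(CPM + 0.1) over the 12 libraries, the genes most like each marker were named as a description, since all libraries share the same 4 groups. Among the genes most like Chil3 was Inhba (Pearson r = 0.995), and Il4ra was most like Bcat1 (0.994) and Thbs1 (0.994). Mrc1 was most like Peg13 (0.988) and Pcgf2 (0.979), Stat6 like Ercc6 (0.987) and Atg7 (0.983), and Klf4 like Dpy19l1 (0.942) and Gnao1 (0.915). Clec10a followed Trpv2 (0.983) and Cln8 (0.982), and Mgl2 followed Nit2 (0.957) and Prkch (0.940). Folr2 was most like Nfkb2 (0.976) and Slc31a2 (0.975). Cd163, with 16 to 39 counts per library and group means of 1.53 to 1.78 CPM, was most like Castor1 (0.810) and Lrrcc1 (0.807).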

How the data were processed

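The authors deposited 1 table of counts for 12 libraries, unnormalized whole numbers by Ensembl gene, with totals of 14838969 to 18222868. Per the submitters' processing notes, FastQC, HISAT2, featureCounts and DESeq2 and the builds mm10 and GRCm38 were used; neither the annotation release nor the strand setting is named in the sources used here. Symbols, coordinates and exon lengths came from GENCODE M21 (GRCm38), which matched 54495 identifiers, and the 37 others held 0.00357% of counts. Of 150 list symbols all were found, 2 of them (Ear11 as Rnase2a, Scart1 as Cd163l1) under newer names.

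Genes were filtered with filterByExpr and scaled by TMM (factors 0.969 to 1.05). One edgeR fit (version 4.0.16, R 4.3.3) with a coefficient per group served 5 comparisons by the quasi-likelihood test, Benjamini-Hochberg adjusted over 15338 genes, and was tested on simulated data. No replicate pair agreed within sampling noise. SEs belong to fitted log2 differences. Each was computed from the difference and the F statistic of its test, so it is not independent of the p-value. Alternatives were RLE factors, library size alone, no filter, DESeq2 (version 1.42.0), a replicate block, 2-group fits and leaving out each library. Shared words are exact 50-base matches between GENCODE transcripts.

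The markers and lists were chosen with earlier results of these data known. All markers are named; of each list, up to 3 changed genes with the smallest adjusted p and a mean of at least 5 CPM, any gene of the signalling list, and for each marker the 2 most correlated genes. Of the genes this rule names, 2 are not reported here.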

Additional observations from a re-analysis of the deposited data

Results flagged for a closer look

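The genotype difference of 2 markers was not the same with and without OxLDL, by the interaction term of edgeR's quasi-likelihood test. For Mrc1 the interaction was 0.34 on the log2 scale (SE 0.0639, adjusted p = 0.00137): R150X libraries were below every WT library without OxLDL and above every WT library with it. For Klf4 it was 0.57 (SE 0.129, adjusted p = 0.00747): R150X libraries were below every WT library without OxLDL, and the genotypes overlapped with it.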

How the results depend on the processing

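Over 18 settings, 39 of the 45 pairings of a tested marker with a comparison kept their side of the threshold throughout, and no called value changed sign. The number of markers called under OxLDL between genotypes was 4, and 2 to 5 without 1 library. The other comparisons called 7 (untreated genotypes), 7 to 8 (OxLDL in WT), 6 to 7 (OxLDL in R150X) and 2 to 3 (interaction) without 1 library. Only values that were not called changed sign. By library size alone these were the interactions of Il4ra (0.01), Cd163 (0.02) and Stat6 (0.04), Klf4 between genotypes under OxLDL (0.0023) and Cd163 with OxLDL in WT (-0.09). Over the libraries left out one at a time, values ran from -0.15 to 0.14 for Mgl2 with OxLDL in R150X, from -0.06 to 0.03 for Klf4 between genotypes under OxLDL and from -0.08 to 0.01 for the interaction of Stat6. For Cd163 they ran from -0.28 to 0.02 (untreated genotypes), -0.60 to 0.03 (genotypes under OxLDL), -0.07 to 0.09 (OxLDL in WT), -0.42 to 0.20 (OxLDL in R150X) and -0.45 to 0.17 (interaction). The cause was not tested. Same-numbered libraries of the 2 genotypes deviated together weakly, with r of 0.111, 0.0347 and 0.162 without OxLDL and 0.0547, 0.0441 and 0.0682 with it. Over all 18 same-numbered pairs r ran from -0.0418 to 0.162, 2 above 0.1, and over other pairs from -0.125 to 0.068. The main fit did not take the numbers as pairs, and whether they mark a batch was not tested. With replicate as a block, 7, 4, 7, 7 and 2 markers were called in the 5 comparisons (the rise of Mgl2 with OxLDL in WT was lost, adjusted p = 0.0554 by edgeR), and 5355, 2164, 7190, 6209 and 1491 genes against 5056, 1996, 7025, 5983 and 1276. The block also moved the number of other signalling genes raised by OxLDL in R150X from 2 to 4. Depth limits Cd163 and Mgl2, with 14 to 43 counts per library.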
